A study of Mus musculus with 5 samples.

Results

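The ELAV (Hu) RNA-binding protein family has 4 genes in the mouse, Elavl1, Elavl2, Elavl3 and Elavl4. They were taken by gene name from a table of read counts with 55573 genes, and each was found there once. The counts came from RNA-seq of N2A (Neuro-2a) neuroblastoma cells of the mouse, in which the RNA helicase UPF1 had been depleted to find transcripts that depend on nonsense-mediated mRNA decay (NMD). Control cells (siCtl, replicates 1 and 3, n = 2 libraries) had been transfected with 60 pmol of a commercial non-targeting siRNA, and UPF1-knockdown cells (siUpf1, replicates 1, 2 and 3, n = 3 libraries) with 60 pmol of an siRNA against Upf1. Both groups received the same TransIT-X2 transfection reagent and the same serum-containing medium. All 5 libraries came from the 1 cell line and no library of untransfected cells was analysed here. Each library was made from polyadenylated RNA of a whole culture, so that more RNA of a gene per cell and more cells with that RNA cannot be told apart.

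ELAV proteins carry RNA recognition motifs that bind AU-rich and U-rich stretches, chiefly in introns and 3′ untranslated regions (3′ UTRs) of mRNAs. ELAVL1 (HuR) is made in nearly all cell types and moves between nucleus and cytoplasm, where it stabilises many short-lived mRNAs. ELAVL2 (HuB), ELAVL3 (HuC) and ELAVL4 (HuD) are the neuronal members, early markers of neurons that act on alternative splicing, mRNA stability and translation during neuronal differentiation. NMD, which needs UPF1, degrades mRNAs that carry a stop codon well upstream of their last exon junction, and it also lowers some mRNAs without such a stop codon.

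The members are similar enough in their coding sequences that the extent to which short reads separate them had to be known first. Over aligned bases, coding sequences were 72.0% (Elavl1 and Elavl3) to 78.4% (Elavl3 and Elavl4) identical. A stretch of 51 bases at the start of the third RNA recognition motif is shown, because it holds an identical run of 11 bases in all members. It was chosen by this run and not by its similarity as a whole. Below, capitals mark the bases that differ from Elavl4, and each sequence was read 5′ to 3′ from the longest coding transcript in GENCODE M21 (build GRCm38, minus strand in every case). The windows are at chr8:4289824-4289874 (Elavl1, exon 6 of 6), chr4:91253467-91253517 (Elavl2, exon 8 of 8), chr9:22018730-22018780 (Elavl3, exon 7 of 7) and chr4:110206559-110206609 (Elavl4, exon 7 of 7).
Elavl1: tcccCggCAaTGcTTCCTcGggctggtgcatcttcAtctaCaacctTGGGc
Elavl2: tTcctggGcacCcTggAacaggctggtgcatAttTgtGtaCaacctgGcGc
Elavl3: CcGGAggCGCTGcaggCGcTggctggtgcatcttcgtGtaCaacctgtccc
Elavl4: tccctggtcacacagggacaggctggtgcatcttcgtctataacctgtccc

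Elavl1 differed from Elavl4 at 17 of these 51 bases, Elavl3 at 14 and Elavl2 at 11. Reads were 100 bases long. Of all 100-base windows in the longest coding transcripts, 0 of 5644 for Elavl1, 0 of 4092 for Elavl2 and 0 of 4050 for Elavl4 occurred in a transcript of another gene. For Elavl3 157 of 4915 windows (3.19%) did, all of them in Gm49318, a gene model on the same strand whose exons share 256 bases with Elavl3. Gm49318 had 0 reads in every library, and a read lying within shared bases would have been left out as ambiguous. No window was shared between 2 members, so reads from these transcripts that match without error were not exchanged within the family. Reads were counted over all annotated exons, and exons outside these transcripts were not searched. Merged exons span 10363 (Elavl1), 8313 (Elavl2), 6890 (Elavl3) and 5387 bases (Elavl4), against 5743, 4191, 5014 and 4149 in these transcripts. Exons of Ccl25 share 204 bases with Elavl1 on the opposite strand, and counting was by strand.

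The libraries held 20402205 to 27717594 assigned reads, with 21757 to 23215 genes detected in each. Between libraries of the same group, Pearson's r of log2 normalised read counts across genes (genes are no replicates) lay at 0.9963 to 0.9978, compared with 0.964 to 0.9661 for libraries of different groups. Upf1, the target of the siRNA, had 5217 and 5243 normalised read counts in siCtl and 2403, 2496 and 2449 in siUpf1 (log2 fold change -1.10 ± 0.051 SE, adjusted p = 7.09e-101 by DESeq2). Of 14 fixed markers of sympathetic neuroblastoma and neurons, 11 were expressed highly enough to be tested. They included Hand2 and Gata3, transcription factors of that lineage, and Tubb3, Gap43 and Chgb, whereas the neurofilament genes Nefl and Nefm were near 0 in all 5 libraries. The glial markers Aqp4 and Sox10 had at most 1.8 normalised read counts in any library, and the fibroblast marker Lum and the microglial marker Cx3cr1 had 0 in all.

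Upon UPF1 knockdown, the neuronal members Elavl2, Elavl3 and Elavl4 were higher and the ubiquitous member Elavl1 was slightly lower. Of the 15191 genes that DESeq2 tested, 44.9% were called at an adjusted p-value under 0.05, 22.0% as higher and 22.9% as lower in siUpf1. Against this background, 3 of the 4 members were called as higher and 1 as lower. The same 4 calls were made by edgeR, which called 54.6% of 15368 genes (27.5% higher, 27.1% lower). In all 4 members the siCtl and siUpf1 libraries did not overlap, as was the case for 69.4% of the genes tested (34.3% with all siUpf1 libraries above and 35.2% with all below). Since so much of the transcriptome was called, the size of each change is given together with the percentage of tested genes whose change was more positive.

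**Figure D1:**
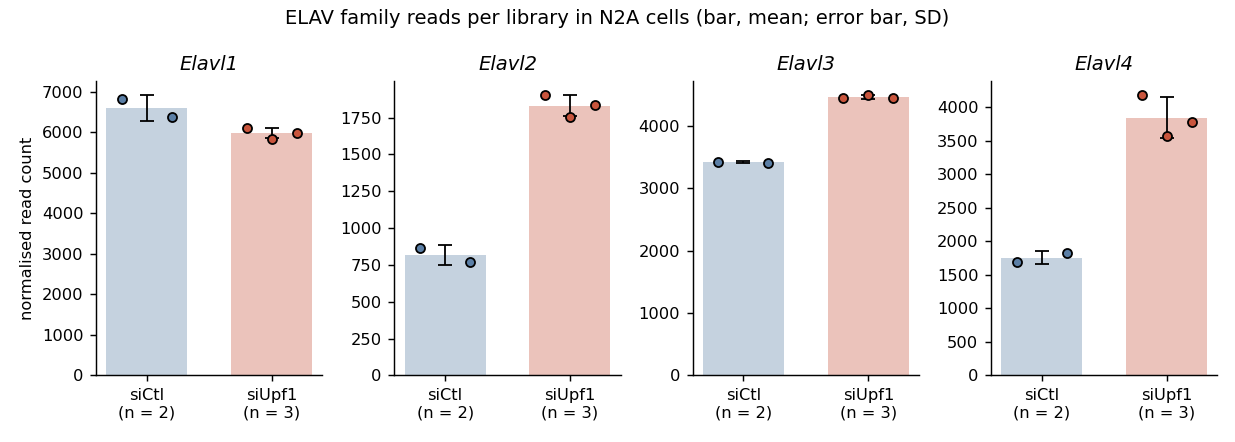
Normalised read count (y axis, linear from 0) of each ELAV gene in the 2 siCtl and 3 siUpf1 libraries (points), with the group mean (bar) and SD (error bar). The siUpf1 points of Elavl2 and Elavl4 lie at more than 2 times the siCtl mean (2.25-fold and 2.19-fold), those of Elavl3 at 1.30-fold, and those of Elavl1 just below siCtl.

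Elavl4 encodes HuD, which binds and stabilises mRNAs of neurite outgrowth such as Gap43. The gene (ENSMUSG00000028546.17) lies at chr4:110203722-110351909. Its normalised read counts were 1696 and 1823 in siCtl and 4184, 3572 and 3788 in siUpf1. Every siUpf1 library was well above both siCtl libraries, and siUpf1 replicate 1 was the highest. The means were 1759.4 ± 89.6 (SD, n = 2) and 3848.3 ± 311 (SD, n = 3), a 2.19-fold difference. The log2 fold change was 1.13 (SE 0.069) with an adjusted p of 1.04e-57 in DESeq2, and edgeR's quasi-likelihood test gave an adjusted p of 8.7e-10. Only 2.78% of tested genes had a larger log2 fold change. The study defined its NMD targets in part by their increase in these siUpf1 libraries and assayed Elavl4 as an NMD target by RT-qPCR, so its call here is not independent evidence of its direction. That assay was made in cultured cortical neurons, relative to pre-mRNA, and not in these N2A libraries.

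The primers of that RT-qPCR assay, from the study's oligonucleotide list, show which part of Elavl4 the study followed. Capitals mark the bases that differ from the nearest site in another member.
Elavl4 forward: ctccagAccaaaaccatAaaggt
Elavl4 reverse: tgatGcgAccgtaTtgAgagaa

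The forward primer spans the junction of exons 3 and 4 of the longest coding transcript (chr4:110226545-110226565 and chr4:110213280-110213281), and its nearest site in another member, in Elavl1, had 2 mismatches. The reverse primer lies in exon 4 (chr4:110213161-110213182), 4 mismatches from its nearest site, in Elavl3. The product is 142 bases of coding sequence, and both primers match 8 of the 12 annotated Elavl4 transcripts. The read counts, by contrast, were summed over all exons of the gene.

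Elavl2 encodes HuB, the neuronal member that is also found in germ cells. It lies on the same chromosome as Elavl4, at chr4:91250763-91400785 (ENSMUSG00000008489.18). Its normalised read counts were 863 and 768 in siCtl and 1901, 1757 and 1836 in siUpf1. As for Elavl4, there was a wide gap between the groups and siUpf1 replicate 1 was the highest library. The means of 815.3 ± 67.0 (SD, n = 2) and 1831.3 ± 71.9 (SD, n = 3) differed 2.25-fold. The log2 fold change was 1.17 (SE 0.078) with an adjusted p of 4.75e-49 in DESeq2 and 5.36e-10 in edgeR, and 2.53% of tested genes had a larger one.

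Elavl3 encodes HuC, which is made in most neurons from early in their differentiation. It lies at chr9:22015005-22052023 (ENSMUSG00000003410.8). Its normalised read counts were 3429 and 3413 in siCtl and 4445, 4496 and 4453 in siUpf1. Its libraries were closer together within groups than those of any other member, and the groups were clearly apart. With means of 3421.1 ± 10.9 (SD, n = 2) and 4464.4 ± 27.3 (SD, n = 3), Elavl3 was 1.30-fold higher in siUpf1. The log2 fold change of 0.38 (SE 0.048) had a DESeq2 adjusted p of 2.62e-14 (edgeR adjusted p = 9.72e-07), and 20.3% of tested genes had a larger one.

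Elavl1 encodes HuR and lies at chr8:4285382-4325413 (ENSMUSG00000040028.10). Its normalised read counts were 6826 and 6370 in siCtl and 6107, 5844 and 5988 in siUpf1. The groups did not overlap, but the gap between siCtl replicate 3 and siUpf1 replicate 1 was smaller than that between the siCtl libraries. The means of 6598.1 ± 322 (SD, n = 2) and 5979.5 ± 132 (SD, n = 3) gave a log2 fold change of -0.14 (SE 0.048), with an adjusted p of 0.00914 in DESeq2 and 0.0145 in edgeR. Of the tested genes, 63.9% had a larger log2 fold change, and 73.2% had one that was larger in absolute size. The call of Elavl1 as lower was not stable across alternatives. Without siCtl replicate 1 the log2 fold change was -0.09 (DESeq2 adjusted p = 0.28), and scaling to total counts gave -0.12 (DESeq2 adjusted p = 0.0735).

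**Figure D2:**
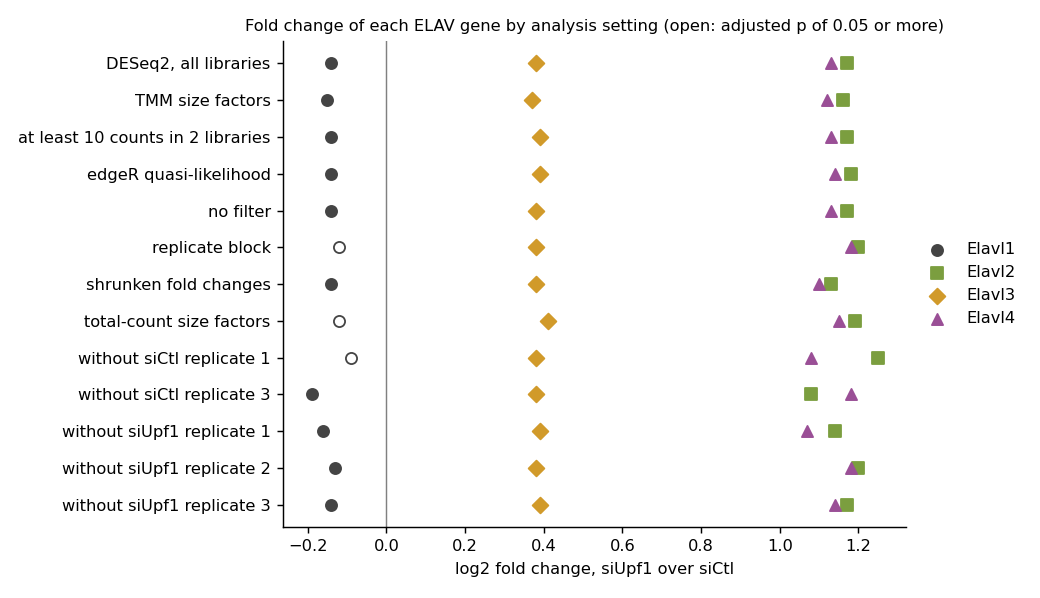
Log2 fold change of siUpf1 over siCtl (x axis) for each ELAV gene under the main analysis and its alternatives (y axis), with open symbols where the adjusted p-value was 0.05 or more. Elavl2 (1.08 to 1.25), Elavl3 (0.37 to 0.41) and Elavl4 (1.07 to 1.18) are filled in every row, and Elavl1 (-0.19 to -0.09) is open in 3 rows.

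Across those alternatives Elavl2 and Elavl4 held the same place, close to each other and far from Elavl3, which lay between them and Elavl1. The markers of neuroblastoma and neurons were examined beside the neuronal ELAV genes. Of the 11 tested, 8 were higher (22.0% of all genes tested were), 1 (Stmn2) was lower and 2 (Tubb3 and Chga) were not called. The summed level of the list went from 787 to 803 RPKM (assigned reads scaled to exon length and library size) in siCtl to 910 to 953 RPKM in siUpf1. Isl1 (log2 fold change 1.80) and Dbh (1.62) were the most increased of the tested markers, whereas the log2 fold changes of Stmn2, Tubb3 and Chga were -0.16, -0.05 and -0.04. The part of these markers in the ELAV result was not tested. The summed levels of the glial markers were 2.57 to 2.65 RPKM in siCtl and 2.79 to 2.95 RPKM in siUpf1, with 0 of 3 tested markers called by DESeq2 and 1 by edgeR.

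Levels of different genes can be compared only per length. On the RPKM scale, with the length of all annotated exons of a gene merged, the siCtl order was Elavl1 (26.0 and 24.5 in replicates 1 and 3), Elavl3 (19.6 and 19.7), Elavl4 (12.4 and 13.5) and Elavl2 (4.09 and 3.68). No neighbours in that order overlapped. In siUpf1 replicates 1, 2 and 3, Elavl4 stood at 31.9, 25.9 and 28.5 RPKM, Elavl3 at 26.5, 25.5 and 26.2, Elavl1 at 24.2, 22.0 and 23.4, and Elavl2 at 9.40, 8.25 and 8.94. Elavl4, below Elavl3 in siCtl, thus overlapped with Elavl3 at the top in siUpf1, and Elavl2 stayed last. The order at the top depends on the length used: with the length of the longest coding transcript, Elavl1 was first in siUpf1 (41.9 ± 2.01 RPKM, SD, n = 3), before Elavl4 (37.4 ± 3.94) and Elavl3 (35.8 ± 0.729).

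Summed over the 4 members, the level was 62.1 and 61.4 RPKM in siCtl and 92.1, 81.7 and 86.9 RPKM in siUpf1, a ratio of 1.41 between the group means. All siUpf1 sums were above both siCtl sums. Elavl1 made up 41.8% and 39.9% of the sum in siCtl and 26.3%, 27.0% and 26.9% in siUpf1. The share of Elavl4 changed in the other direction, from 20.0% and 22.0% to 34.7%, 31.7% and 32.7%. Elavl2 went from 6.6% and 6.0% to 10.2%, 10.1% and 10.3%. Elavl3 took a similar share in both groups, 31.6% and 32.2% in siCtl and 28.8%, 31.2% and 30.1% in siUpf1, and the sign of its small difference depended on the length scaling, being -1.8 percentage points here and 0.5 without scaling.

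**Figure D3:**
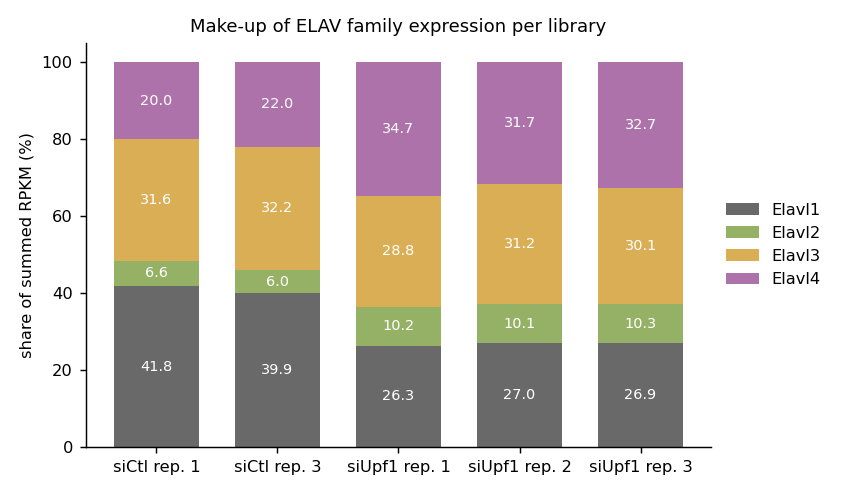
Share of the summed RPKM of the ELAV family (y axis, percent) taken by each member in every library (x axis). The Elavl1 segment is about 40% of the siCtl bars (41.8% and 39.9%) and 26.3% to 27.0% of the siUpf1 bars, while the Elavl4 and Elavl2 segments are larger in siUpf1.

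Taken as 1 group, the neuronal members made up 58.2% and 60.1% of family RPKM in siCtl and 73.7%, 73.0% and 73.1% in siUpf1. The difference of 14.1 percentage points (59.1 ± 1.36, SD, n = 2, against 73.3 ± 0.361, SD, n = 3) was many times the spread between libraries. A two-sided exact permutation test over the libraries gave p = 0.1, the smallest that 2 libraries against 3 allow. The difference was 15.3 points both without length scaling and with the length of the longest coding transcript.

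Ratios between members within a library do not depend on library size, and they were compared for all 6 pairs. The log2 ratio of Elavl4 to Elavl1 was -1.07 and -0.86 in siCtl and 0.40, 0.23 and 0.28 in siUpf1, a difference of 1.27 (pooled SD 0.108). The ratio of Elavl2 to Elavl1 differed by 1.31 (pooled SD 0.034), that of Elavl3 to Elavl1 by 0.53 (0.05) and that of Elavl4 to Elavl3 by 0.74 (0.11). Elavl3 to Elavl2 differed by -0.79 (0.085). In each of these 5 pairs the groups did not overlap, with an exact permutation p of 0.1 (n = 2 and 3, two-sided), again the smallest possible, and 0.12 after Benjamini-Hochberg adjustment over the 6 pairs.

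The remaining pair was Elavl4 and Elavl2. Their log2 ratio was 1.60 and 1.87 in siCtl and 1.76, 1.65 and 1.67 in siUpf1, so the siUpf1 libraries lay inside the siCtl range. The difference was -0.04 (pooled SD 0.122, two-sided exact permutation p = 0.8, n = 2 and 3), and it was -0.18 without siCtl replicate 1 and 0.09 without siCtl replicate 3. A difference in response between Elavl4 and Elavl2 was therefore not detectable with these libraries.

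The annotated transcripts were examined for the stop codon position by which NMD recognises many of its substrates. GENCODE M21 lists 4 transcripts for Elavl1, 16 for Elavl2, 3 for Elavl3 and 12 for Elavl4, and it classes 0 of them as NMD substrates. Of the transcripts with an annotated stop codon (2, 9, 2 and 7), 0 had it more than 50 nt upstream of the last exon junction. In the longest coding transcripts the stop codon lay downstream of the last junction, by 325 nt in Elavl1, 328 nt in Elavl2, 352 nt in Elavl3 and 370 nt in Elavl4. The counts do not tell transcripts of a gene apart, and transcripts outside the annotation were not analysed here.

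All members had long 3′ UTRs. That of Elavl1 was 4218 nt, longer than 93.3% of the 3′ UTRs of 12702 tested mRNAs (median 1106 nt). Elavl3 followed with 3498 nt (89.0%), Elavl4 with 2595 nt (80.2%) and Elavl2 with 2477 nt (78.8%). From the longest to the shortest 3′ UTR, the log2 fold changes were -0.14 (Elavl1), 0.38 (Elavl3), 1.13 (Elavl4) and 1.17 (Elavl2). The longer 3′ UTRs of Elavl1 and Elavl3 thus went with the smaller fold changes. Elavl4 and Elavl2 could not be ranked, since their fold changes were 1.18 and 1.08 without siCtl replicate 3. The part of 3′ UTR length in the result was not tested.

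ELAV proteins are known to bind AU-rich elements, which are often recognised by the pentamer ATTTA, and the 3′ UTRs of their own mRNAs were searched for it. There were 17 copies in Elavl1, 15 in Elavl2, 8 in Elavl3 and 9 in Elavl4. The densities were 4.03, 6.06, 2.29 and 3.47 per kilobase, higher than in 89.7%, 96.5%, 70.5% and 85.5% of 12163 tested mRNAs (median 1.3). These densities were not adjusted for base composition, although the pentamer holds only A and T. In the same order, the GC content of the 3′ UTRs was 41.8%, 33.4%, 50.4% and 31.9%. Of all 3′ UTRs examined, 68.0% held at least 1 copy. The densest 30-base window of each member is shown here, with the pentamers in capitals.
Elavl1: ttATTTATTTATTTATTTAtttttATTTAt
Elavl2: ttttATTTAtgaagttacaaacagtATTTA
Elavl3: ctgagatgtggttatgcctaATTTATTTAt
Elavl4: tttatgttgcttgaaacacttATTTATTTA

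The Elavl1 window (chr8:4285777-4285806) held 5 overlapping or neighbouring copies and began 3794 nt after the stop codon, near the end of the transcript. The windows of Elavl2 (chr4:91252690-91252719), Elavl3 (chr9:22015913-22015942) and Elavl4 (chr4:110204993-110205022) held 2 each. A match of these letters is a description and does not show that a protein binds there.

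**Figure D4:**
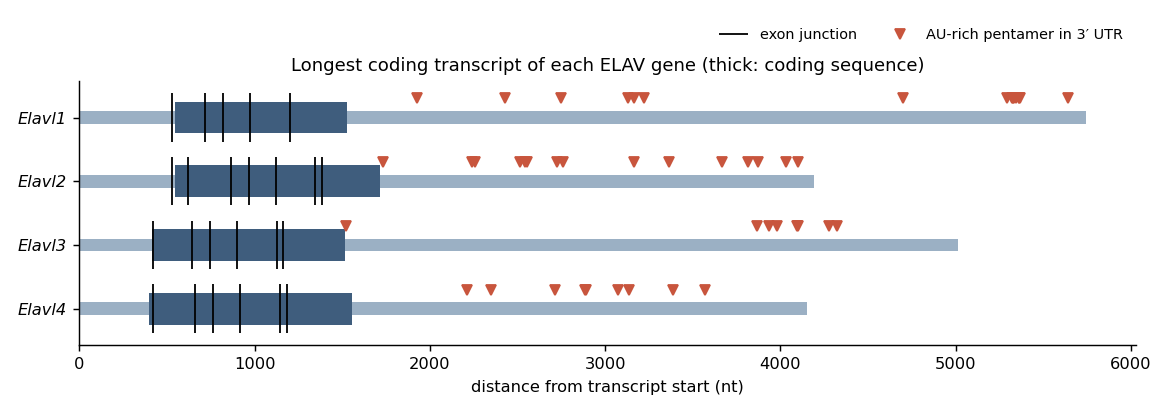
Longest coding transcript of each ELAV gene drawn to scale (x axis, nt from the transcript start), with the coding sequence thick, exon junctions as vertical lines and AU-rich pentamers of the 3′ UTR as triangles. In every member the last junction lies within the coding sequence, and the 3′ UTR takes up more than the coding sequence (4218 nt against 981 nt in Elavl1).

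The siRNA was searched against the members because short matches to positions 2 to 8 of an siRNA strand, its seed, can lower other mRNAs. The strand given in the labels and its reverse complement are shown with the seed in capitals.
Upf1 siRNA, sense: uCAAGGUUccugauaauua
Upf1 siRNA, antisense: uAAUUAUCaggaaccuuga

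The 3′ UTR of Elavl1 held 1 site for the antisense seed, GATAATT, 71 nt after the stop codon (chr8:4289511-4289540). This site is shown in capitals because Elavl1 was the only member with a lower level in siUpf1, although that call was not stable across alternatives.
Elavl1: tgtacggaataGATAATTaagagtgaagaa

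Of the 3′ UTRs of tested mRNAs, 8.3% held this 7-mer. Their median length was 1106 nt, against 4218 nt in Elavl1, and a longer 3′ UTR has more places for a match. The longest coding transcript of Elavl4 held it once in its coding sequence, and that of Elavl1 held the sense-strand site AACCTTG once in its coding sequence, a 7-mer found in 10.6% of tested 3′ UTRs. Elavl2 and Elavl3 held neither. The part of these sites in the levels of Elavl1 and Elavl4 was not tested.

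The neuronal members were all higher in siUpf1, although Elavl3 differed less than Elavl2 and Elavl4 did. Their promoter windows (250 bases before to 50 after a RefSeq start site, build GRCm38.p6) are shown. Where RefSeq gave several windows, 6 for Elavl2 and 4 for Elavl4, the 1 with most GENCODE coding transcript starts within 50 bases was used. These were 4 of 12 coding starts in Elavl2, 2 of 3 in Elavl3 and 3 of 10 in Elavl4. The other windows were not searched. Both strands were searched for CAGCTG (an E-box bound by basic helix-loop-helix factors), CCAAT and TATAAA, which are in capitals and do not overlap. The windows are at chr4:91376421-91376720 (Elavl2), chr9:22051974-22052273 (Elavl3) and chr4:110287462-110287761 (Elavl4), all on the minus strand.
Elavl2: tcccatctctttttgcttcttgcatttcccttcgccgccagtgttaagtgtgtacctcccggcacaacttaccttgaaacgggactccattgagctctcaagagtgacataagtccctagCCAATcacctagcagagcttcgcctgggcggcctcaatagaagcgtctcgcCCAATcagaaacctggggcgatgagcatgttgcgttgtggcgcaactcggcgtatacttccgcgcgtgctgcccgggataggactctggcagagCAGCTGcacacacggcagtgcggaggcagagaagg
Elavl3: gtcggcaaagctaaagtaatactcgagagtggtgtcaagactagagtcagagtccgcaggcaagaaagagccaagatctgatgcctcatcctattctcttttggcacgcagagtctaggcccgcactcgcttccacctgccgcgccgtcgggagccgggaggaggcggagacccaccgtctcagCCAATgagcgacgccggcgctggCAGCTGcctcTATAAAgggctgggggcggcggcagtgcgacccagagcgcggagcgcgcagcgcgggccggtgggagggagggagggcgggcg
Elavl4: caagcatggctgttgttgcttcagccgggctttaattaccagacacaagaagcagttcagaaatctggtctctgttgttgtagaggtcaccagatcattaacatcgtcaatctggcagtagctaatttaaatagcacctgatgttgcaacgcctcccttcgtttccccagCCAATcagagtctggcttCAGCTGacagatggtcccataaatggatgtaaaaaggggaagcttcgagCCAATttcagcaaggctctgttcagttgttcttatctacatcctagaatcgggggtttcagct

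Each of these 3 windows held 1 CAGCTG, as did 16.3% of the 32851 RefSeq promoter windows. It lay 43 bases (Elavl3) and 62 bases (Elavl4) before the start site and 16 bases after it in Elavl2. CCAAT was present 2 times in Elavl2 and in Elavl4 and 1 time in Elavl3 (37.4% of all windows hold it), and TATAAA was present in Elavl3 (13.6%). The window of Elavl1 held 2 copies of CCAAT and neither of the other motifs, but 0 of its GENCODE coding starts were within 50 bases of that RefSeq start. The windows differed in base composition, with a GC content of 56.7% in Elavl2, 65.3% in Elavl3 and 46.0% in Elavl4, against a median of 52.7%. These matches do not show binding by a factor.

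Genes that work with or beside the ELAV family were then taken from 4 lists, chosen with earlier results of these data known and without a test of any list. The first held 15 other proteins that bind AU-rich elements, many of which destabilise the mRNAs that ELAV proteins stabilise. Of 14 tested, 3 were higher, 5 were lower and 6 were not called (57.1% called, against 44.9% of all genes), with a median log2 fold change of -0.03, against -0.00 for all genes tested. Their summed level was 338 to 341 RPKM in siCtl and 303 to 322 RPKM in siUpf1. Lower were Zfp36 (tristetraprolin), which went from 530.8 ± 14.2 to 305.4 ± 26.6 normalised read counts (-0.80 on the log2 scale, SE 0.125, adjusted p = 1.44e-09 in DESeq2), its paralog Zfp36l2 (-0.79, SE 0.064) and Celf1 (-0.41, SE 0.045). Higher were Rc3h2 (roquin-2; 0.76, SE 0.153), Tia1 (0.65, SE 0.075) and Hnrnpd (AUF1; 0.22, SE 0.048). The mRNAs of destabilising proteins thus appeared on both sides.

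The second list held 19 cofactors of ELAV proteins, such as kinases, nuclear transport factors and enzymes that modify HuR. Here 11 of 18 tested genes were lower, 4 were higher and 3 were not called, with a median log2 fold change of -0.20. Thus 83.3% were called, against 44.9% of all genes tested (22.0% higher, 22.9% lower). Without siCtl replicate 3, only 2 were called higher and 9 lower. The summed level was 994 to 1010 RPKM in siCtl and 900 to 939 RPKM in siUpf1. The protein kinase C genes Prkcd (from 1690.3 ± 42.2 to 1044.5 ± 24.5 normalised read counts; -0.70 on the log2 scale, SE 0.072, adjusted p = 1e-20 in DESeq2) and Prkca (-0.57, SE 0.083) and the checkpoint kinase gene Chek2 (-0.45, SE 0.092), whose products phosphorylate HuR, were lower. Higher were Parp1 (0.49, SE 0.046), Mapk14, the gene for p38 (0.36, SE 0.053), and Set (0.17, SE 0.041). All of these genes differed less than Elavl2 and Elavl4 did.

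The third list held 34 mRNAs known as targets of HuR or of the neuronal ELAV proteins. Of 30 tested, 16 were higher, 8 were lower and 6 were not called, with a median log2 fold change of 0.18. The share called was 80.0%, against 44.9% of all genes tested (22.0% higher, 22.9% lower). The summed level of the list differed in the other direction, with 2360 to 2420 RPKM in siCtl and 2030 to 2080 RPKM in siUpf1. This sum is dominated by its most abundant mRNAs, Actb and Ptma, which were both lower. Their mean RPKM went from 1230 in siCtl to 1020 in siUpf1 (Actb) and from 447 to 263 (Ptma). The most increased were Bcl2, an inhibitor of apoptosis, which had 125.8 and 130.2 normalised read counts in siCtl and 421.6, 401.6 and 345.0 in siUpf1 (1.60 on the log2 scale, SE 0.161, adjusted p = 4.63e-22 in DESeq2), and Mycn, the oncogene amplified in many neuroblastomas (1.34, SE 0.117). Hif1a, which encodes a subunit of the hypoxia-inducible factor, was also higher (0.79, SE 0.063). The most decreased were Ptma (-0.79, SE 0.042), Sirt1 (-0.67, SE 0.079) and Trp53 (-0.66, SE 0.051), all described as targets of HuR. Whether any of these differences followed from the ELAV proteins was not tested.

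The last list held 8 regulators of neural alternative splicing from other families. Of these, 5 were higher, 1 was lower and 2 were not called, with a median log2 fold change of 0.29. The share called was 75.0%, against 44.9% of all genes tested (22.0% higher, 22.9% lower). Their summed level was nevertheless lower in siUpf1, at 185 to 195 RPKM against 214 to 216 RPKM in siCtl. Ptbp1, which represses neuronal exons in non-neuronal cells, was the 1 that was lower, from 18532.6 ± 275 to 13601.0 ± 412 normalised read counts (-0.45 on the log2 scale, SE 0.041, adjusted p = 1.92e-26 in DESeq2). Rbfox1 was higher (1.02, SE 0.229) at a low level of 71.7 ± 8.01 normalised read counts in siCtl, and so were Ptbp3 (0.67, SE 0.082) and Nova1 (0.56, SE 0.085), which is also in the list of ELAV targets. Elavl2 (1.17) and Elavl4 (1.13) had larger log2 fold changes than any gene of this list, by a comparison of values without a test. Both values lay within the SE of Rbfox1, so a rank above Rbfox1 is not established.

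**Figure D5:**
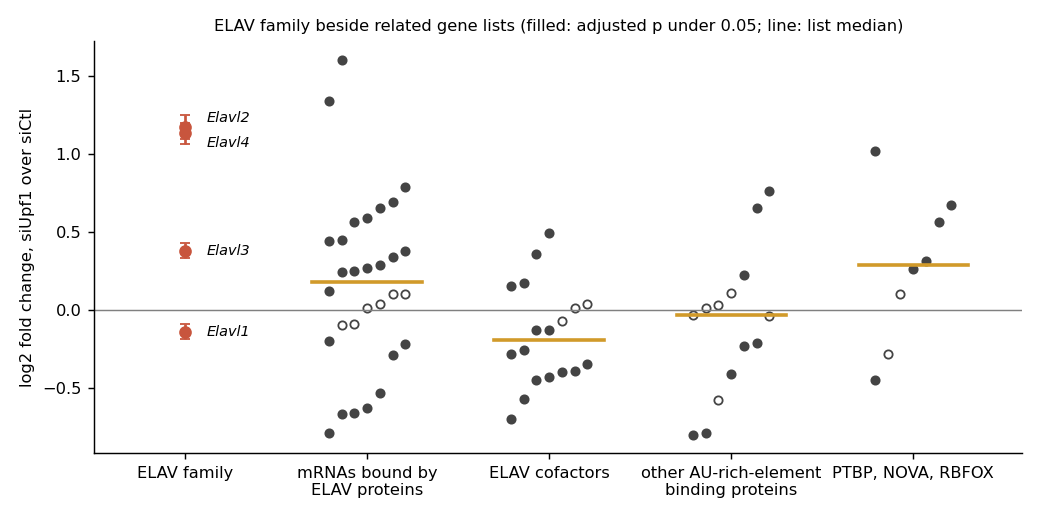
Log2 fold change of siUpf1 over siCtl (y axis) for the ELAV family and the tested genes of the 4 related lists (x axis), filled where the DESeq2 adjusted p-value was under 0.05, with a line at each list's median and error bars (SE) on the ELAV genes. Elavl2 (1.17) and Elavl4 (1.13) lie above all but 2 list genes, Bcl2 (1.60) and Mycn (1.34), and the list medians run from -0.20 to 0.29.

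Among 10962 genes with at least 100 normalised read counts on average, those with the pattern most like each member over the 5 libraries were sought by the root mean square difference of centred log2 values. Closest to Elavl4 were Ranbp6 (0.027), Mfap3l (0.036) and Usp15 (0.037). Ankrd44 (0.024), Itga8 (0.026) and Megf9 (0.04) were closest to Elavl2. The distance between Elavl2 and Elavl4 themselves was 0.096, so that each had other genes nearer to it than the other. Elavl3 was most like Aes (0.013), Senp2 (0.014) and Tsc22d1 (0.014), and Elavl1 most like Cnot6 (0.009), Nectin3 (0.012) and Metap1 (0.014). With 5 libraries in 2 groups, this likeness mostly reflects the size of the difference between the groups.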

How the data were processed

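Poly(A) RNA of N2A cells was sequenced on strand-specific libraries (single-end, 100-base reads). Per the study's methods, the authors trimmed reads with fastp, mapped them to GRCm38.p6 with STAR (2.7.0f in the submitters' processing notes) and counted exonic reads on the reverse strand with featureCounts (Subread 1.6.4), using GENCODE M22 or M25. The authors deposited raw counts of reads for each gene, neither normalised nor pooled. Libraries were grouped by their titles. The labels do not say whether libraries came from separate cultures, although the study describes its blots of these transfected cells as coming from independent experiments. P-values measure only the spread between these libraries, which may be technical.

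All 55573 genes were fitted with DESeq2 1.42.0 (R 4.3.3), siUpf1 against siCtl, with median-of-ratios size factors, Wald tests, independent filtering and Benjamini-Hochberg adjustment over all genes tested. Calls were made below an adjusted p-value of 0.05, and edgeR 4.0.16 gave a second test. Log2 fold changes are siUpf1 over siCtl, and SE is DESeq2's. The fit was tested on simulated data. RPKM, shares and exact permutation tests (SciPy 1.17.1) were computed from the same counts. Positions and transcripts are from GENCODE M21 (99.8% of identifiers matched). Promoter windows are from RefSeq.

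The members, lists and tests were chosen with earlier results of these data known. Named genes were the members, Upf1, up to 3 called genes with the largest and 3 with the smallest log2 fold change per list, the 3 genes most like each member (on log2 of normalised count + 1) and genes that overlap a member. Markers and edge cases named beyond this rule were chosen after their values were seen.

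Alternatives were edgeR, TMM or total-count scaling, a minimum of 10 counts in 2 libraries, no filter, shrinkage of fold changes, a block for the replicate number, other lengths and each library left out.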

Additional observations from a re-analysis of the deposited data

How the results depend on the processing

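Under all 12 alternatives Elavl2, Elavl3 and Elavl4 kept their direction and were called, with highest adjusted p-values (DESeq2 or edgeR) of 5.36e-10, 0.000427 and 8.7e-10. Shrinkage of fold changes carried over the adjusted p-values of the main fit, so its calls were fixed in advance. Elavl1 kept its direction in all 12 and its call in 9, shrinkage included. The call was lost with total-count scaling (log2 fold change -0.12) and, with each library left out in turn (-0.19 to -0.09), without siCtl replicate 1. With the replicate number as a block, Elavl1 had a log2 fold change of -0.12 (DESeq2 adjusted p = 0.301), 3919 genes were called rather than 6822, and the median of the AU-rich binding list was 0.02 rather than -0.03, while Elavl2 (1.20), Elavl3 (0.38) and Elavl4 (1.18) stayed called. The numbers were not taken to pair libraries, since only 2 pairs exist and the deviations of same-numbered libraries from their group means correlated at -0.102 and -0.105 over 10963 genes. The crossed pairing was not run. The rise of the neuronal share, 14.1 percentage points, was 13.2 to 15.1 with a library left out and 15.3 under both other length scalings. The Elavl4 to Elavl2 ratio difference of -0.04 ranged from -0.18 to 0.09, a change of sign, with a library left out. The other 5 ratios stayed within 1 SD, and the total called in each of the 4 lists within 1.5 times. By direction, the cofactors called higher fell from 4 to 2 both without siCtl replicate 3 and with the block. Scaling moved the median of all genes by at most 0.022 (log2). Without 1 siCtl library, the lone one is assumed to vary like siUpf1. With 2 siCtl libraries, small differences such as that of Elavl1 are near the limit of these data.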
